A study of Mus musculus with 6 samples.

Results

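The genes described are 7 members of the MHC class II presentation pathway, taken by gene symbol from a table of 55573 genes: the invariant chain Cd74, the chains H2-Aa, H2-Ab1 and H2-Eb1, the peptide-loading chains H2-DMa and H2-DMb1, and the transactivator Ciita. All 7 carried enough counts to be tested, as did 8444 genes in all. The libraries come from cells sorted as retinal ganglion cells (RGCs), which send the eye's output to the brain. All mice were C57BL/6 with floxed Myh9 and Myh10, which encode heavy chains of nonmuscle myosin II. The 3 libraries labelled WT came from eyes given AAV2-GFP and the 3 labelled dKO from eyes given AAV2-Cre, a virus that carries the recombinase. Injection into the vitreous preceded tissue collection by 2 weeks, and every library pooled 3 retinas, each from another mouse. Not given in the sources used here were the promoter that drives Cre, the age of the mice, and whether replicates came from separate litters or days. The p-values therefore reflect only how far these libraries spread, which may be technical.

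MHC class II molecules are pairs of an alpha and a beta chain that display peptides from endosomes to CD4 T cells. The invariant chain, made from Cd74, fills the groove of a new pair on its way to the endosome, and the DM pair then exchanges its remnant for a peptide. Dendritic cells, B cells and macrophages are the usual carriers of class II, and neurons are not. MHC class I, made of a heavy chain and B2m, displays peptides from the cytosol on most cell types. The C57BL/6 strain lacks a working H2-Ea chain, the partner of H2-Eb1, so that H2-Aa with H2-Ab1 is its surface class II pair.

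Library totals were 4569880 to 6146226 counts, but one ribosomal RNA row took 89.8% to 92.8% of them in 5 libraries and 64.2% in dKO replicate 3. Counts outside that row were 346037 to 576060 in those 5 libraries and 1636581 in dKO replicate 3, and this depth sets the precision of every value given. The targeted genes were not detectably lower in the dKO libraries. Myh9 had a log2 fold change of -0.044 ± 0.098 (SE, edgeR adjusted p = 0.908) and Myh10 one of -0.15 ± 0.14 (adjusted p = 0.735). Without dKO replicate 3, the values were 0.022 and 0.088, so WT and dKO are used below as the labels' names only. RGC markers were sparse: 3 of the 9 listed passed the filter on low counts, and Pou4f1, Pou4f2 and Nefm had no count in at least 1 library. Of those 3, Nefl, a neurofilament chain, was higher in dKO by 1.63 ± 0.28 on the log2 scale (SE, edgeR adjusted p = 3.96e-05). Thy1, a surface marker of RGCs, had a log2 fold change of -0.073 ± 0.17 (adjusted p = 0.911) and Isl1, a transcription factor of RGCs and other retinal neurons, one of -0.65 ± 0.23 (adjusted p = 0.138). After scaling for composition, Isl1 was lower in every dKO library than in any WT library. Below the filter, Slc17a6, Nefm and Pou4f1, named after their values were seen, were higher in every dKO library than in any WT library. They had 0 to 3 counts in WT and 1 to 21 in dKO. Rbpms, Pou4f2 and Sncg overlapped between the groups. The sums of this list are given below with the other markers.

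Class II promoters share a compact block of elements, the X1 box bound by RFX, the X2 box bound by CREB family members and the Y box bound by NF-Y, on which CIITA assembles without touching DNA itself. The stretches before the starts of H2-Aa, the member with the smallest p, and H2-Eb1, whose promoter held X1 and Y letters, are shown. They are RefSeq sequences on GRCm38.p6, 120 bases ending just before the annotated start and written along the gene's strand. Capitals mark matches to the searched letters, which were chosen after the sequences had been read. A box whose letters differ from these is not marked, so a box without capitals may still be present. The H2-Aa stretch lies at chr17:34287824-34287943 on the minus strand and the H2-Eb1 stretch at chr17:34305747-34305866 on the plus strand.
H2-Aa: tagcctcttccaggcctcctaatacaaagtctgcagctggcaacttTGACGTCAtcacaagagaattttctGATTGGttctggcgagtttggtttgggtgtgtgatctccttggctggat
H2-Eb1: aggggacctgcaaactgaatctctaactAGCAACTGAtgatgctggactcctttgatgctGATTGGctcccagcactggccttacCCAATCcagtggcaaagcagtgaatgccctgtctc
In H2-Aa, the X2 letters TGACGTCA began at position -74 and the Y letters GATTGG at -49, counted from the start site. In H2-Eb1, the X1 letters AGNAACTGA began at -92 and GATTGG at -60, and the Y letters on the other strand, CCAATC, at -35.

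The 3 sets of letters were searched on both strands in the same window of all 32851 promoters of the table, and no match overlapped another in the 2 stretches shown. GATTGG was found in 9.67% of promoters, TGACGTCA in 1.24% and AGNAACTGA in 0.718%. Of the 5 promoter entries that matched members, covering 4 genes, 3 held GATTGG (H2-Aa, H2-DMb1 and H2-Eb1) and 2 held AGNAACTGA (H2-DMb1 and H2-Eb1). Of the 4 entries of other class II genes (H2-DMb2, H2-Eb2, H2-Oa and H2-Ob), 4 held GATTGG and none AGNAACTGA. In the list of class I and peptide-loading genes, 10 of 22 entries held GATTGG and none AGNAACTGA. TGACGTCA was held by 1 of the 5 member entries (H2-Aa), and by no entry of the other class II genes or the class I list. A match describes these letters in this window only.

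No member passed the test between dKO and WT, where 1.92% of all tested genes did, 0.734% higher and 1.18% lower. The 3 chains and Cd74 had positive log2 fold changes of 0.071 to 0.27, H2-DMa lay at 0.017, and H2-DMb1 and Ciita were negative. The median of the 7 was 0.071, against -0.00072 over all genes tested, and 5 of the 7 were above 0, as were 49.8% of all genes. At an unadjusted p under 0.05, 1 of the 7 passed (H2-Aa), against 5.66% of all genes in that direction and 6.88% in the other. DESeq2, limma-voom and limma-voom with quality weights called 0 of the 7 as well, where they called 0.616%, 1.94% and 1.71% of all genes. Levels of a gene across libraries are given as CPM, its counts per 1000000 counts of the library after TMM scaling, ribosomal RNA row included. In bulk RNA, a change in the number of cells of a type and a change in RNA per cell cannot be told apart.

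**Figure D1:**
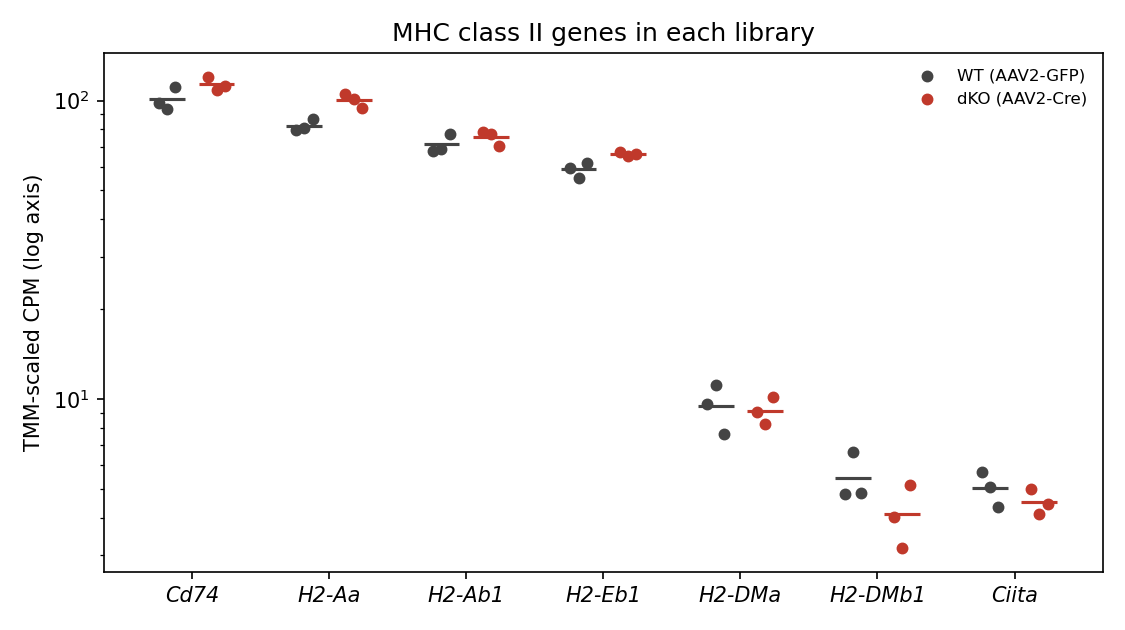
Level of each of the 7 class II members in the 3 WT and 3 dKO libraries, in TMM-scaled CPM, on a log axis. Points are libraries and lines are group means. The dKO points of H2-Aa and H2-Eb1 lie above all WT points, and those of the other 5 genes overlap with WT.

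Cd74, the invariant chain that escorts class II to the endosome, is on the plus strand of chromosome 18 (GRCm38, 60803848 to 60812652). Its level was 98.3, 93.5 and 110.9 CPM in the WT libraries, replicates 1 to 3, and 120.3, 108.7 and 112.3 in the dKO libraries. The groups overlapped, since dKO replicate 2 lay below WT replicate 3. Mean levels were 100.9 ± 9.02 in WT and 113.8 ± 5.95 CPM in dKO (SD, 3 libraries each). The log2 fold change was 0.17 ± 0.095 (SE, edgeR adjusted p = 0.460). The 95% interval ran from -0.017 to 0.36.

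H2-Aa, the alpha chain of the surface pair, lies at 34282744 to 34287823 on the minus strand of chromosome 17. Its CPM were 80.0, 80.8 and 86.5 in WT and 105.0, 100.9 and 94.3 in dKO. Every dKO library lay above every WT library, as for 8.66% of all genes tested. Mean levels were 82.4 ± 3.53 and 100.1 ± 5.40 CPM (SD, 3 libraries each). The log2 fold change was 0.27 ± 0.095 (SE), that is 20.97% higher with a 95% interval of 6.103% to 37.9%, at an unadjusted p of 0.00502 and an adjusted p of 0.135 in edgeR's quasi-likelihood test. This difference did not pass the threshold of 0.05 after adjustment over all genes. Over 15 alternative settings that kept a correction for composition, the fold change was 0.24 to 0.33 and the adjusted p 0.0516 to 0.414, the lowest with limma-voom and quality weights.

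H2-Ab1, the beta chain that pairs with H2-Aa, lies at 34257689 to 34269419 on the plus strand of chromosome 17. Its CPM were 67.5, 68.8 and 77.5 in WT and 78.7, 77.2 and 70.2 in dKO. The groups overlapped, with dKO replicates 2 and 3 inside the WT range. Means of 71.3 ± 5.46 and 75.4 ± 4.53 CPM (SD, 3 libraries each) gave a log2 fold change of 0.071 ± 0.097 (SE, edgeR adjusted p = 0.826), with a 95% interval of -0.12 to 0.26.

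H2-Eb1, the beta chain of the pair that this strain does not complete, lies at 34305867 to 34316674 on the plus strand of chromosome 17. Its CPM were 59.4, 55.1 and 61.7 in WT and 67.0, 65.0 and 66.3 in dKO. The dKO libraries lay close together and above all WT libraries. Means of 58.8 ± 3.35 and 66.1 ± 0.989 CPM (SD, 3 libraries each) gave a log2 fold change of 0.17 ± 0.097 (SE, edgeR adjusted p = 0.495), with a 95% interval of -0.026 to 0.36. H2-Aa and H2-Eb1 were the 2 of 7 members whose groups did not overlap, both with dKO above WT, as for 8.66% of all genes tested (17.0% in either direction). H2-Eb1 has a close relative, H2-Eb2, and the handling of reads that match both is not given in the sources used here.

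The chains of the DM pair were an order lower in counts, so their fold changes had wider intervals. H2-DMa, its alpha chain, lies at 34119541 to 34139101 on the plus strand of chromosome 17 and had 9.61, 11.1 and 7.65 CPM in WT and 9.02, 8.25 and 10.1 in dKO. The dKO values sat inside the WT range, and the log2 fold change was 0.017 ± 0.18 (SE, edgeR adjusted p = 0.982), with a 95% interval of -0.34 to 0.37. Its sign was not stable: without WT replicate 3 or without dKO replicate 3 the fold change was -0.11. H2-DMa shares bases with Brd2 on the other strand, which had 44 to 313 counts a library. The strand setting of the counting is not given, so it is not known whether reads from the shared bases were assigned to the right gene.

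H2-DMb1, the beta chain of the DM pair, lies at 34153072 to 34160230 on the plus strand of chromosome 17. It had 4.81, 6.65 and 4.85 CPM in WT and 4.03, 3.15 and 5.16 in dKO, from 13 to 79 counts a library. The lowest 2 values were dKO replicates 1 and 2, but dKO replicate 3 lay inside the WT range. The log2 fold change was -0.24 ± 0.25 (SE, edgeR adjusted p = 0.760) with a 95% interval of -0.73 to 0.25, so a change of either sign was not detectable at this depth. H2-DMb2, a near-identical neighbour, had 4 to 27 counts, and reads could have been split between the 2 genes.

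Ciita encodes the transactivator on which class II transcription depends, and lies at 10480059 to 10528418 on the plus strand of chromosome 16. Its CPM were 5.68, 5.07 and 4.34 in WT and 4.99, 4.13 and 4.44 in dKO. The groups overlapped, with dKO replicate 1 between WT replicates 2 and 3. The log2 fold change was -0.17 ± 0.25 (SE, edgeR adjusted p = 0.847), with a 95% interval of -0.65 to 0.32. Ciita shares bases with Dexi on the other strand, which had 3 to 27 counts a library.

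**Figure D2:**
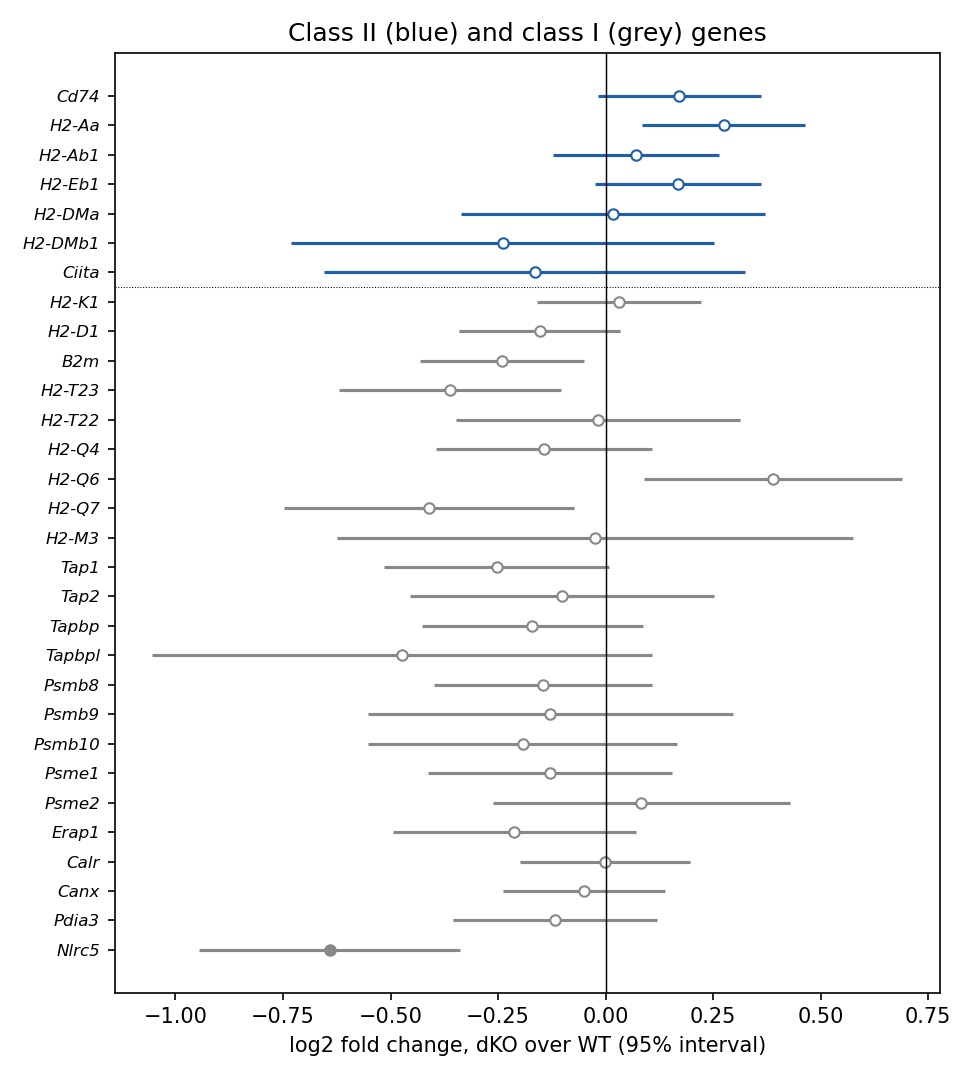
Log2 fold change, dKO minus WT, of the 7 class II members and of genes of the class I list, with bars for the 95% interval from edgeR; filled points have an adjusted p under 0.05. The interval of H2-Aa lies above 0, those of the other 6 members cross 0, and Nlrc5, below 0, is the one filled point.

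The remaining class II genes were too low to test, 0 of 5 passing the filter. H2-DMb2 had 5, 9 and 5 counts in WT and 4, 9 and 27 in dKO. H2-Oa and H2-Ob, the chains of the DO pair that inhibits DM, had 1 to 7 and 3 to 5 counts in WT and 5 to 25 and 4 to 24 in dKO, the highest in the deepest library. H2-Eb2 had 0 to 3 counts in WT and 1 to 5 in dKO. H2-Ea-ps, annotated as a pseudogene, had no count in 5 libraries, where a count of 0 allows up to 3, and 3 counts in dKO replicate 3.

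Levels of different genes were compared as counts per kilobase (kb) of exon per 1000000 counts outside the ribosomal RNA row, called CPM per kb here, over all 6 libraries. Cd74 was highest at 582 ± 52.8 (SD, n = 6), with a range of 508 to 648 that overlapped no other member. H2-Eb1 followed at 293 ± 22.8, H2-Ab1 at 260 ± 15.3 and H2-Aa at 219 ± 25.4. The ranges of H2-Eb1 (259 to 319) and H2-Ab1 (241 to 277) overlapped over the 6 libraries, WT and dKO together, as did those of H2-Ab1 and H2-Aa (193 to 250). Within each library the order held all the same, with H2-Ab1 at 0.802 to 0.951 of H2-Eb1 and H2-Aa at 0.754 to 0.908 of H2-Ab1 in 6 of 6. H2-Aa lay at 193 to 202 in WT and 232 to 250.01 in dKO. The DM chains were next, H2-DMb1 at 25.9 ± 6.45 and H2-DMa at 24.6 ± 3.59 with overlapping ranges, and Ciita was lowest at 4.56 ± 0.571, apart from all others.

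The order among the chains depended on the length used. With the length of the principal transcript, a choice added after the data were seen, H2-Aa came first at 737 ± 85.5 and Cd74 second at 694 ± 62.9 CPM per kb (SD, n = 6). The exons of H2-Aa span 3798 bases over all annotated transcripts but 1128 in the principal one, whereas those of Cd74 span 1679 and 1410. Ciita stayed last by each of the 3 lengths, and the DM chains stayed between Ciita and the 3 chains H2-Aa, H2-Ab1 and H2-Eb1.

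**Figure D3:**
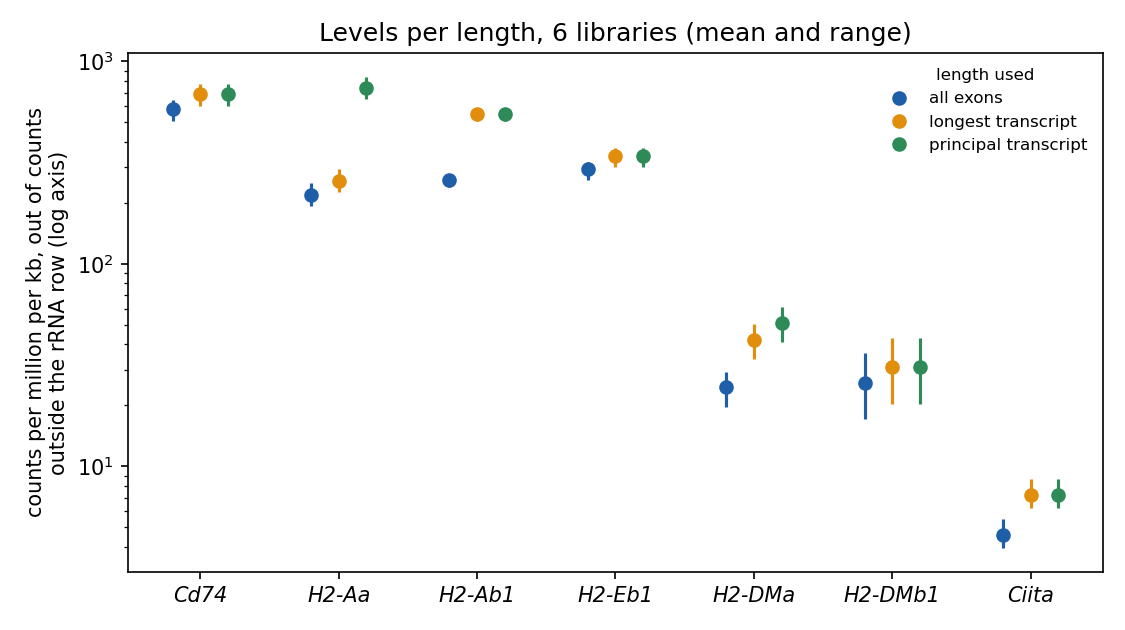
Level of each class II member, in CPM per kb of exon out of the counts outside the ribosomal RNA row, on a log axis; points are means over 6 libraries and bars their range, by the length of all exons, the longest or the principal transcript. By all exons Cd74 stands above the 3 chains, the DM chains lie lower, and Ciita is lowest at 3.93 to 5.46; H2-Aa rises to the top by its principal transcript.

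Class II was then set against class I. Summed over the 7 members, class II took 0.298%, 0.293% and 0.314% of the non-ribosomal counts (those outside that row) in WT and 0.352%, 0.334% and 0.339% in dKO. The dKO libraries all lay above the WT libraries, with means of 0.342% ± 0.00917 and 0.302% ± 0.0112 (SD over 3 libraries), a ratio of 1.13. Cd74, H2-Aa, H2-Ab1 and H2-Eb1 made up most of the class II counts. The class II sums and their ratios therefore say little of H2-DMa, H2-DMb1 and Ciita, with log2 fold changes of 0.017, -0.24 and -0.17. The 23 genes of the class I and peptide-loading list took 0.686% ± 0.0144 in dKO and 0.735% ± 0.00675 in WT.

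The ratio of summed class II to summed class I counts, in which library scaling cancels, was 0.406, 0.401 and 0.423 in WT and 0.506, 0.499 and 0.490 in dKO. The groups did not overlap, and the mean ratio in dKO was 1.215 times that in WT (0.499 ± 0.00785 against 0.410 ± 0.0114, SD over 3 libraries), or 1.20 to 1.23 times when each library was left out in turn. With the chains H2-Aa, H2-Ab1 and H2-Eb1 set against H2-K1, H2-D1 and B2m alone, the ratio was 0.516, 0.532 and 0.532 in WT and 0.651, 0.665 and 0.630 in dKO. No test was made on these sums, since the members were chosen with earlier results known.

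Of the 23 class I genes, all tested, 0 passed as higher and 1 as lower in dKO (Nlrc5), beside 0.734% and 1.18% of all genes. Their median log2 fold change was -0.14, with 20 below 0 and 3 above. Groups did not overlap for 5 genes with dKO below WT (Nlrc5, B2m, H2-T23, Tapbpl and Psmb8) and for 1 with dKO above (H2-Q6), where 8.31% and 8.66% of all genes did so. The class I heavy chain H2-K1 had 139 ± 12.2 CPM in WT and 142 ± 3.28 in dKO (SD over 3 libraries), a log2 fold change of 0.031 ± 0.096 (SE, edgeR adjusted p = 0.936). The heavy chain H2-D1 was at 113 ± 6.03 and 101 ± 6.86 CPM, with -0.15 ± 0.094 (adjusted p = 0.531).

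B2m, the light chain of class I, had 143, 146 and 164 CPM in WT and 132, 132 and 121 in dKO. All dKO values lay below all WT values, and the log2 fold change was -0.24 ± 0.096 (SE, edgeR adjusted p = 0.230). It was called lower by limma-voom (adjusted p = 0.0258) and by limma-voom with quality weights (adjusted p = 0.0398). The nonclassical genes H2-T23, H2-Q7 and H2-Q6 had log2 fold changes of -0.36 ± 0.13, -0.41 ± 0.17 and 0.39 ± 0.15 (SE), with edgeR adjusted p of 0.159, 0.251 and 0.214. H2-Q6 and H2-Q7 are near-identical copies, as are parts of H2-K1 and H2-D1, so reads could have been split among them.

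Nlrc5 encodes the class I transactivator, a relative of CIITA that acts on the same X and Y elements. It had 16.4, 21.2 and 13.3 CPM in WT and 9.40, 11.2 and 11.1 in dKO. All dKO values lay below all WT values, and Nlrc5 fell by 0.64 ± 0.15 on the log2 scale (SE, edgeR adjusted p = 0.00732). The call was lost with DESeq2 (adjusted p = 0.174) and without WT replicate 2, the highest library (adjusted p = 0.176, log2 fold change -0.48). The ratio of Nlrc5 to Ciita counts was 2.88, 4.19 and 3.06 in WT and 1.88, 2.71 and 2.50 in dKO. These did not overlap, at a two-sided exact permutation p of 0.1, the smallest that 3 against 3 libraries can give.

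Among the 6 count ratios between Cd74, H2-Aa, H2-Ab1 and H2-Eb1, that of H2-Aa to H2-Ab1 separated the groups. It was 1.184, 1.175 and 1.115 in WT and 1.33, 1.31 and 1.34 in dKO. The two-sided exact permutation p was 0.1, the smallest possible, and 0.36 after Benjamini-Hochberg adjustment over the 6 ratios. In the other five the groups overlapped. These ratios and that of Nlrc5 to Ciita were chosen after the data were seen.

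**Figure D4:**
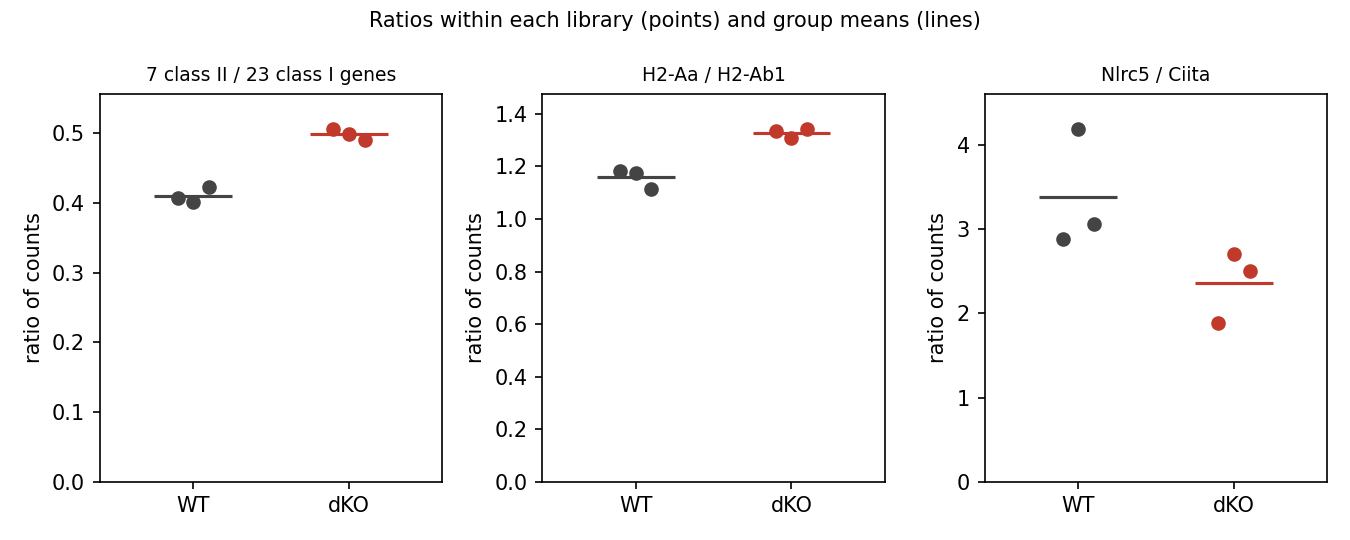
Ratios of counts within each library, on axes that start at 0: summed class II to summed class I genes, H2-Aa to H2-Ab1, and Nlrc5 to Ciita; points are libraries and lines are group means. The dKO points lie above all WT points in the first 2 panels and below them in the last.

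Genes around the class II pathway were described by list. Of the 7 genes of the class II transcription machinery, 6 were tested, 0 passed in either direction, and their median log2 fold change was -0.16. Rfx5, the DNA-binding RFX subunit, had a log2 fold change of -0.33 ± 0.24 (SE, edgeR adjusted p = 0.644) and its partner Rfxank one of -0.29 ± 0.29 (adjusted p = 0.754). Of 7 genes of endosomal processing and surface turnover, all were tested and 0 passed, with a median of 0.069. Ctsl, a protease that trims the invariant chain, had a log2 fold change of 0.26 ± 0.11 (adjusted p = 0.274), and March8, a ubiquitin ligase that takes class II from the surface, one of 0.42 ± 0.20 (adjusted p = 0.374). Ctss, of the same list and named after its values were seen, had -0.099 ± 0.098 (SE, edgeR adjusted p = 0.754). Its mean level was 1555 CPM per kb in WT and 1470 in dKO, against 47.5 and 57.9 for Ctsl.

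Of the 4 costimulatory genes, which give T cells the signal that accompanies class II, 2 were tested and 0 passed. Cd86, a ligand of CD28, had a log2 fold change of -0.28 ± 0.23 (SE, edgeR adjusted p = 0.686) and Icosl, the ligand of ICOS, one of 0.16 ± 0.27 (adjusted p = 0.865). Ifng, the gene for interferon gamma, a cytokine that induces Ciita in many cells, had 0 or 1 count in each WT library and 0 to 3 in dKO.

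Marker genes of the usual carriers of class II, and of microglia and plasma cells, were measured beside the members, as summed CPM per kb. The class II sum was 1275 to 1390 in WT and 1450 to 1537 in dKO. Macrophage and monocyte markers summed to 560 to 636 in WT and 754 to 832 in dKO, without overlap. Of their 10 genes, 9 were tested and 1 passed, Lyz2, a lysozyme of macrophages, at a log2 fold change of 0.50 ± 0.097 (SE, edgeR adjusted p = 0.000392). Adgre1, the gene for F4/80, had 0.39 ± 0.13 (adjusted p = 0.0881), and Pf4 had no count in at least 1 library. Of the 9 tested, 6 were above 0 and 3 below, with a median of 0.21. Those below, named after their values were seen, were Ccr2 (-0.26), Cd68 (-0.20) and Fcgr1 (-0.049), with every dKO library under every WT library for Ccr2. Mrc1, also named after its values were seen, had the largest change, 1.21 ± 0.37 (SE, edgeR adjusted p = 0.0690), from 4 to 52 counts a library. Groups did not overlap for 3 genes with dKO above WT and 1 with dKO below, where 8.66% and 8.31% of all genes did so. Without Lyz2 the sums were 175 to 193 in WT and 189.5 to 214 in dKO, so that the groups overlapped.

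Microglia markers overlapped between the groups, with sums of 907 to 1016 in WT and 894 to 1004 in dKO, and 0 of 8 passed. Csf1r, the receptor on which microglia depend, had a log2 fold change of 0.094 ± 0.095 (SE, edgeR adjusted p = 0.758). Tmem119 lay at -0.20 ± 0.13 (adjusted p = 0.589), and Trem2 at 0.54 ± 0.16 (adjusted p = 0.0513). With upper-quartile scaling Trem2 passed, at 0.57 (adjusted p = 0.0357).

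Dendritic cell markers summed to 51.8 to 69.6 in WT and 45.4 to 49.1 in dKO, lower in every dKO library than in any WT library. Of 9 such genes 4 were tested and 0 passed, and Xcr1, Clec9a and Cd209a had no count in at least 1 library. Flt3, a receptor of dendritic cell precursors, had a log2 fold change of -1.08 ± 0.36 (SE, edgeR adjusted p = 0.116) and Ccr7, a receptor of migrating dendritic cells, one of -1.03 ± 0.39 (adjusted p = 0.200). Itgax, the gene for CD11c, had -0.16 ± 0.19 (adjusted p = 0.794) and Siglech 0.17 ± 0.22 (adjusted p = 0.819).

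B cell markers were near the limit of counting, at 14.9 to 26.7 in WT and 25.03 to 27.7 in dKO, and 1 of 8 was tested. As summed CPM, in which long genes weigh more, they were at 4.59 to 6.56 in WT and 6.79 to 9.14 in dKO and did not overlap. Ms4a1, the gene for CD20, named after its values were seen, had 1 count in each WT library and 5, 4 and 23 in dKO, higher in every dKO library also as CPM. The tested gene, Cd22, had a log2 fold change of 0.62 ± 0.32 (SE, edgeR adjusted p = 0.416), Cd79b was below the filter, and Fcer2a had no count in any library. Plasma cell markers were at 215 to 238 in WT and 190 to 220 in dKO, with 2 of 6 tested and 0 passing. Of these, Jchain, the joining chain of secreted antibodies, had -0.21 ± 0.099 (adjusted p = 0.342) and Irf4 -0.26 ± 0.24 (adjusted p = 0.738). Jchain made up most of the sum, at mean levels of 208 in WT and 182 in dKO against 229 and 205 for the list.

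Among cells that do not usually carry class II, T cell and endothelial markers overlapped between groups with 0 calls. RGC markers overlapped too, at 63.6 to 84.6 in WT and 84.3 to 92.7 in dKO. As summed CPM they were at 23.6 to 25.2 in WT and 28.6 to 29.2 in dKO and did not overlap. In that sum, the mean of Nefl was 2.24 CPM in WT and 7.16 in dKO. Müller glia and astrocyte markers were at 5419 to 5656 in WT and 5686 to 6207 in dKO, with 1 of 6 called. That gene was Gfap, the glial filament, higher by 0.69 ± 0.12 on the log2 scale (SE, edgeR adjusted p = 4.04e-05). Gfap was a small part of the sum, at mean levels of 49.7 in WT and 82.3 in dKO. The list's means were 5507 and 5965. Of its 6 genes, 4 had log2 fold changes above 0 and 2 below. The part of these markers in the class II values was not tested.

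**Figure D5:**
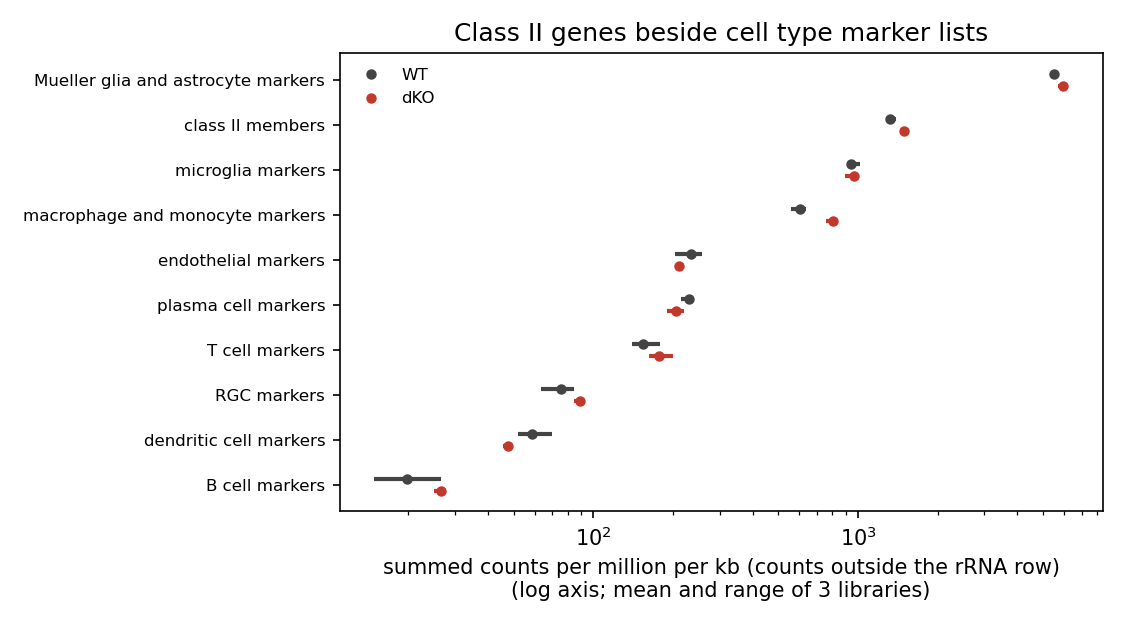
Summed CPM per kb of exon, out of the counts outside the ribosomal RNA row, for the 7 class II members and for 9 lists of cell type markers, on a log axis; points are group means and bars the range of 3 libraries. The class II, macrophage and monocyte, and Müller glia and astrocyte sums lie higher in dKO without overlap, and the dendritic cell sum lies lower. Without Lyz2 the macrophage sums overlap. Gfap, the called glial gene, is a small part of its list's sum, and Jchain is most of the plasma cell sum. Cd74, H2-Aa, H2-Ab1 and H2-Eb1 are most of the class II sum.

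The genes whose level followed that of Cd74 most closely over the 6 libraries were listed as a description, from log2 CPM of 8443 other tested genes. The 5 closest protein-coding genes outside all lists were Cenpb (Pearson r = 0.998, Spearman rho = 1), Tmem63a (0.990 and 0.943), Emc10 (0.989 and 1), Ttyh2 (0.986 and 0.943) and Ubxn6 (0.985 and 0.943). In all, 132 genes had an r above 0.9, and the points share their library, its depth and its scaling factor. H2-Eb1 ranked 78 with r = 0.93, H2-Aa 274 with 0.85 and H2-Ab1 518 with 0.77. The class I heavy chain H2-K1 was close to H2-Ab1, at rank 556 with 0.77, whereas B2m had -0.34 and Nlrc5 -0.96. Ciita, H2-DMa and H2-DMb1 had r of -0.49, -0.56 and -0.58 with Cd74. Their counts were 16 to 68, 30 to 155 and 13 to 79 a library. With so few counts and 6 libraries, these r cannot show whether the 3 genes followed Cd74.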

How the data were processed

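RNA-seq was measured in 3 WT and 3 dKO libraries, grouped by their labels. The authors deposited raw counts per gene, whole numbers without normalization. Per the labels' protocols, total RNA of sorted cells entered a stranded library kit. The submitters' processing notes list the build GRCm38, the aligner STAR (2.7.0d) and DESeq2 (1.22.2). Not given in the sources used here were the program that counted reads, its strand setting and how it treated reads with several matches.

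Genes were kept with edgeR's filterByExpr (minimum count 10, minimum total 15), scaled by TMM (factors 0.641 to 3.43) and tested with edgeR 4.0.16 under R 4.3.3, by its two-sided quasi-likelihood F test with group as the only term. Those with a Benjamini-Hochberg adjusted p under 0.05 over 8444 genes were called. The same code was run on simulated counts, in which all libraries had the same gene proportions apart from genes changed on purpose. The simulation did not imitate the differing share of the ribosomal RNA row, so it does not test how that was handled. DESeq2 1.42.0, limma 3.58.1, other scalings, filters and lengths, a replicate block and each library left out were alternatives. Positions and exon lengths came from GENCODE M21, where 55480 IDs were found, and promoters from RefSeq; Cd74, H2-Ab1 and Ciita are named without one. Date-like gene names (27) were restored from their IDs. Replicates of a group differed beyond counting noise.

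The members and lists were chosen with earlier results of these data known. Named are all class II genes, H2-K1, H2-D1, B2m, the class I genes called or among the 5 smallest p, from other lists the called genes or the 2 smallest p, from marker lists also the 2 most abundant, and the 5 genes most like Cd74. The T cell, endothelial, and Müller glia and astrocyte lists give called genes only. Some genes that this rule names are not reported here.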

Additional observations from a re-analysis of the deposited data

How the results depend on the processing

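Depth outside the ribosomal RNA row limits H2-DMa, H2-DMb1 and Ciita most. No member was called under any of the alternatives. Genes called higher and lower numbered 62 and 100, against 26 and 26 with DESeq2, 3 and 0 when libraries were scaled by their totals, and 29 to 71 and 61 to 115 with each library left out in turn (29 and 61 without WT replicate 1, 66 lower without dKO replicate 3). Replicate numbers did not pair the libraries (correlations of 0.028, 0.013 and 0.030), although each library correlated best with its own number; a replicate block gave 58 higher and 100 lower and, for H2-Aa, a log2 fold change of 0.28 (edgeR adjusted p = 0.163).

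The log2 fold change of H2-DMa was -0.018 with DESeq2 and -0.0012 with limma-voom and quality weights, and -0.11 to 0.12 with each library left out. Scaling by library totals moved the median of all genes to 1.21, by construction through the ribosomal RNA row, and these values, negative as reported, above 0: H2-DMb1 1.00, Ciita 1.03, the class I median 1.05 (0 called), B2m 0.95, H2-D1 1.05, H2-Q7 0.77, H2-T23 0.81, Nlrc5 0.57, Rfx5 0.88, Rfxank 0.93, Cd86 0.93, Ccr7 0.15, Flt3 0.12, Irf4 0.95, Isl1 0.56, Itgax 1.06, Jchain 1.00, Tmem119 1.00, Thy1 1.13, Myh9 1.13 and Myh10 0.99. As a share of the library total, the class II sum was 2.55 times as high in dKO, and 1.34 times without dKO replicate 3 (an alternative chosen after seeing the data).

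Class I calls numbered 0 with DESeq2, 2 with limma-voom with or without quality weights, and 0 to 1 with each library left out. By principal transcript H2-Aa ranked 1, Cd74 2, H2-Eb1 4, H2-DMa 5 and H2-DMb1 6; by longest transcript H2-Ab1 ranked 2, H2-Eb1 3, H2-DMa 5 and H2-DMb1 6. With each library left out in turn, the range was -0.030 to 0.10 for H2-K1, -0.0047 to 0.51 for Siglech, -0.083 to 0.43 for Icosl, -0.082 to 0.022 for Myh9 and -0.24 to 0.088 for Myh10, the last 3 turning without dKO replicate 3. The cause was not tested.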
